A study of Mus musculus with 11 samples.

Results

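Interferon-stimulated genes are switched on when a cell receives interferon, the cytokine signal of viral infection. A list of 42 mouse genes of this kind was examined here in CD4 T cells, gene by gene and array by array. Each gene was read from the probe set that carries its symbol alone and has the highest mean over all 11 arrays, and 39 of the 42 genes had such a probe set, among 18193 genes in the table. Of the remaining 3, Isg15 shares its probe set with another gene, and it was not analysed here, nor were Ly6a and Ifi44. The GFPKO group (n = 3 arrays) was made of GFP+ CD4+ T cells of Foxp3GFPKO/WT mice, which pair a Foxp3 allele disrupted by GFP with a wild-type allele. Because Foxp3 lies on the X chromosome, GFP marks cells that use the disrupted allele. The Treg group (n = 5) was made of Foxp3-positive CD4+ T cells and the TN group (n = 3) of naive CD4+ T cells negative for Foxp3. The genotype of the Treg and TN mice is not given in the sources used here. In all groups the cells came from spleen and lymph nodes of mice 6 to 8 weeks old, were selected for CD4 and were sorted in 2 rounds, with no treatment named. Whether each array had its own mouse or a pool is not stated, so the p-values reflect a spread between arrays that may be technical only.

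Type I interferons bind the receptor chains Ifnar1 and Ifnar2, and the kinases Jak1 and Tyk2 then pass the signal on to a complex with Stat2 and Irf9, which binds the interferon-stimulated response element (ISRE) in target promoters, while type II interferon acts through Ifngr1 and Ifngr2 and the GAS element. The products include sensors of foreign nucleic acid, enzymes and binding proteins that block viral replication, and proteins that present antigen. T cells respond to both kinds of interferon, and resting lymphocytes hold a low level of these transcripts without infection.

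The labels were checked before the comparisons. Foxp3 itself read between 6.75 and 7.19 on the GFPKO arrays, between 3.29 and 3.64 on the Treg arrays and between 3.12 and 3.99 on the TN arrays, so the Treg arrays stood at the TN level, which goes against their label, and "Treg" below means the arrays labelled Treg. The highest TN value, 3.99, served as the background level. Of the list of 6 markers of regulatory T cells, Foxp3 included, 6 were called higher in GFPKO than in TN, and 5, all but Foxp3, were called higher in Treg than in TN. Over all genes, 2.64% and 6.54% were called higher in these comparisons. Xist, which is transcribed in female cells, read between 11.07 and 11.85 on the GFPKO arrays, against 3.49 to 3.96 on the Treg arrays and 3.72 to 3.84 on the TN arrays, so sex and genotype cannot be told apart in any comparison with GFPKO. Arrays correlated with each other at 0.979 to 0.990 within GFPKO, 0.990 to 0.997 within Treg and 0.994 to 0.996 within TN. All 39 measured interferon-stimulated genes had group means above the background level, with single values between 4.25 and 12.65 on the log2 scale. That level lay below the median of all probe sets on every array (4.07 to 4.16), so passing it does not by itself show expression. The lowest group mean, that of Mx1 in TN, was 4.42.

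In GFPKO cells the interferon-stimulated genes were mostly higher than in TN cells. Of the 39 genes, 18 rose at an adjusted p under 0.05 (limma, adjusted over all genes), where 2.64% of all genes did, and none fell, where 3.02% of all genes did. They were Mx1, Ifit3, Rsad2, Ifit1, Ifitm3, Gbp3, Oasl2, Eif2ak2, Usp18, Ifih1, Dhx58, Cmpk2, Isg20, Xaf1, Stat2, Parp9, Rtp4 and Parp14. In 24 of the 39 genes every GFPKO array was above every TN array, against 7.06% of all genes, and in none was every GFPKO array below, against 11% of all genes. The median log2 difference was 0.64 over the 39 genes and -0.04 over all genes. The 39 genes were brighter than most, with a median GFPKO mean of 8.88 against 4.94 over all genes. Here and below, the shares over all genes include dim genes, and no share was taken over genes of like brightness. The genes were also chosen with earlier results of these data known, so the counts are a description. By role, 3 of 4 nucleic acid sensors, 2 of 3 IFIT genes, 5 of 8 other antiviral effectors, 3 of 6 enzymes of the ISG15, ubiquitin and ADP-ribose group, 1 of 5 OAS genes, 1 of 4 signalling factors, 1 of 2 guanylate-binding proteins and none of 3 antigen processing genes rose. When each array was left out in turn, 12 of the 18 calls held, and those of Dhx58, Eif2ak2, Ifitm3, Parp14, Stat2 and Xaf1 did not.

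Relative to Treg cells, too, many of the genes were higher in GFPKO cells. In GFPKO, 18 of the 39 genes rose (2.55% of all genes did) and 2 fell, Gbp3 and Oas1a (6.88% of all genes did). In 18 genes every GFPKO array was above every Treg array, against 3.31% of all genes, and in 2 genes, Gbp3 and Psmb8, every GFPKO array was below every Treg array, against 11.1% of all genes. The median log2 difference was 0.54 over the 39 genes and -0.08 over all genes. All 3 IFIT genes rose, as did 5 of 6 enzymes of the ISG15, ubiquitin and ADP-ribose group, 5 of 8 other antiviral effectors and 2 of 5 OAS genes. Without Treg replicate 3 the count was 13 of 39 rather than 20. Leaving out each array in turn kept 13 of the 20 calls, and ended those of Herc6, Ifitm3, Irf7, Oas1a, Parp14, Samd9l and Usp18 on at least 1 occasion. Both comparisons of GFPKO share its 3 arrays, so their counts are not independent.

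Between Treg and TN cells fewer of these genes were called than in either comparison with GFPKO. In Treg, 7 of the 39 rose (Gbp3, Isg20, Mx1, Oas1a, Usp18, Ly6e and Gbp2), where 6.54% of all genes did, and 1 fell (Ifit2), where 3.42% of all genes did. Every Treg array was above every TN array in 10 genes, against 11.7% of all genes, and below in 1 gene, against 7.84%. The median log2 difference was 0.14 over the 39 genes and 0.03 over all genes. Only Gbp3, Isg20 and Mx1 stayed called when any 1 array was left out. The count was 4 without any of the 3 TN arrays, taken singly, and 5 without Treg replicate 4 or 5, against 8 with all arrays. Across the 3 comparisons 12 genes were called in none: Irf9, Irf1, Zbp1, Oas3, Oasl1, Mx2, Bst2, Dtx3l, Tap1, Psmb8, Psmb9 and Ifi35.

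**Figure D1:**
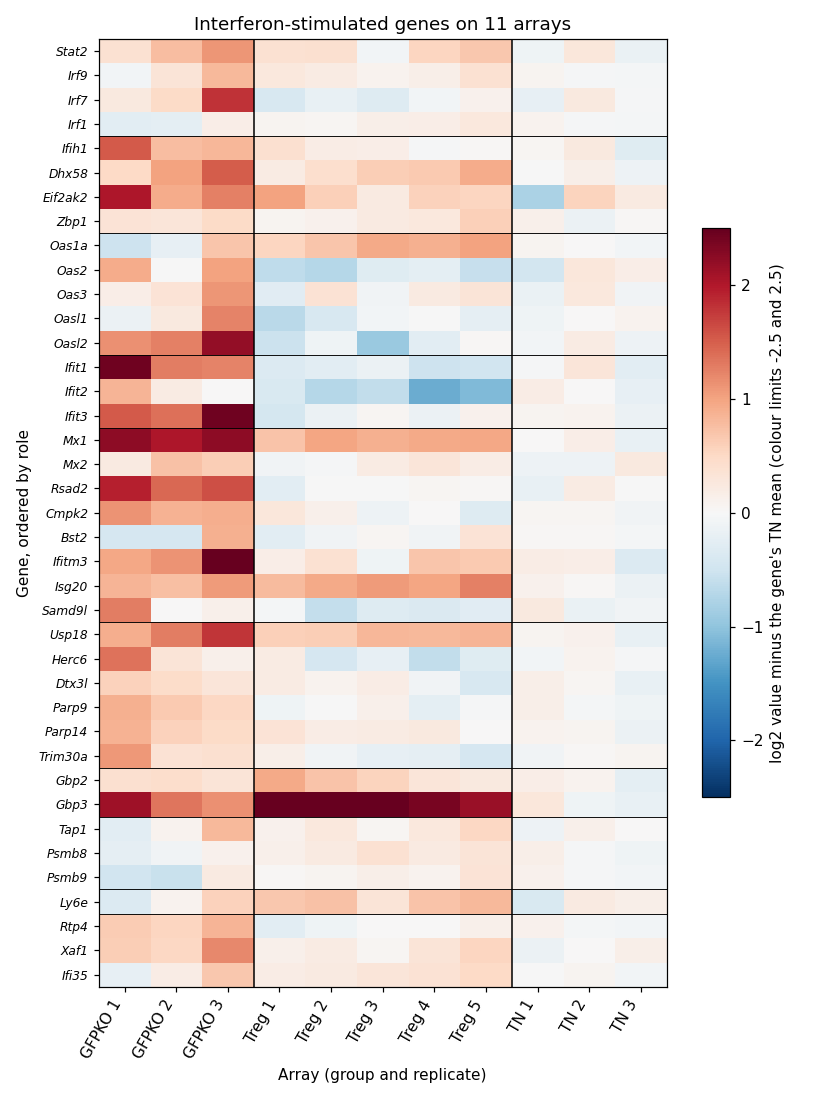
Log2 value of each of the 39 genes minus its TN mean, on the 3 GFPKO, 5 Treg and 3 TN arrays (columns), with genes in rows ordered by role and lines between roles. Red cells fill most of the GFPKO columns, where Mx1, Ifit3, Rsad2, Ifit1 and Ifitm3 are darkest on average, Ifitm3 mainly through replicate 3. In the Treg columns red is deepest in Gbp3. Colours stop at 2.5 above and below the TN mean.

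**Figure D2:**
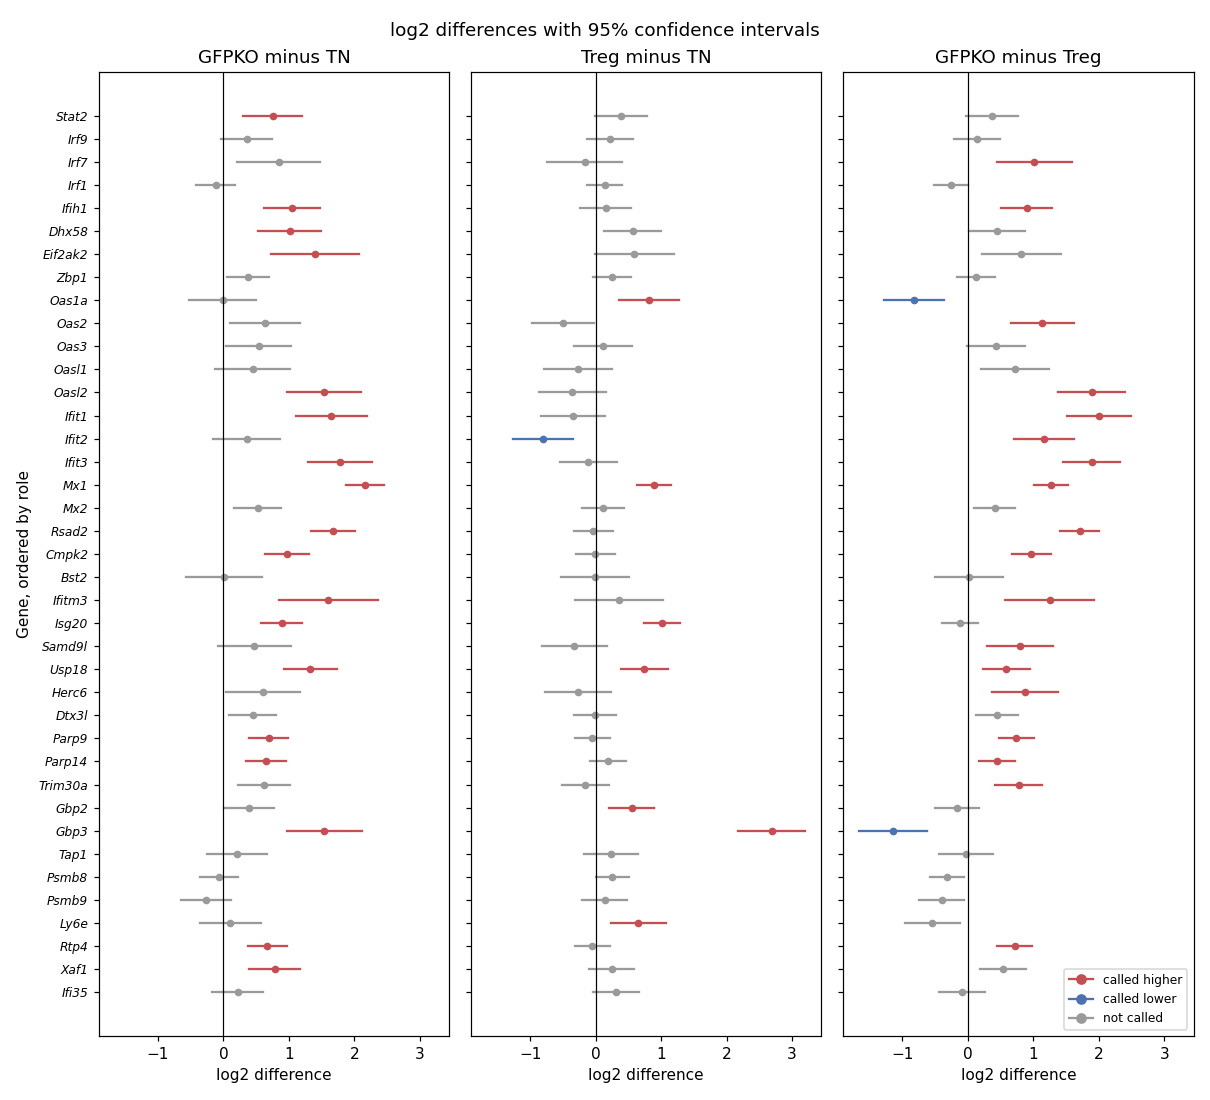
Log2 difference of each gene with its 95% confidence interval from limma, for GFPKO minus TN, Treg minus TN and GFPKO minus Treg. Red genes were called higher (18, 7 and 18), blue genes lower (0, 1 and 2) and grey genes were not called.

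The IFIT proteins bind foreign RNA and block its translation. Ifit3 read 9.36, 9.19 and 10.24 on the GFPKO arrays, 7.38, 7.67, 7.88, 7.67 and 7.93 on the Treg arrays, and 7.89, 7.91 and 7.67 on the TN arrays. All 3 GFPKO values lay above the other 8, and the Treg and TN values overlapped. Its level was higher in GFPKO by 3.43-fold relative to TN (log2 difference 1.78 ± 0.23 SE, adjusted p = 0.00012) and by 3.71-fold relative to Treg (1.89 ± 0.20, adjusted p = 2.7e-05). Treg minus TN was -0.12, with a 95% interval from -0.55 to 0.32. Ifit1 read 9.52, 8.38 and 8.33 in GFPKO, 6.76, 6.83, 6.95, 6.57 and 6.62 in Treg, and 7.07, 7.39 and 6.83 in TN. GFPKO replicate 1 was the highest of the 11, and even the lowest GFPKO value exceeded the highest TN value. The log2 difference was 1.65 ± 0.26 against TN (adjusted p = 0.00077) and 1.997 ± 0.23 against Treg (adjusted p = 4.7e-05). Ifit2 had another order of groups. It read 9.38, 8.73 and 8.53 in GFPKO, 8.15, 7.82, 7.91, 7.28 and 7.41 in Treg, and 8.71, 8.53 and 8.33 in TN. The GFPKO and TN values overlapped (0.35 ± 0.24, adjusted p = 0.54), and every Treg value was below both groups. The gene was 2.24-fold higher in GFPKO than in Treg (1.16 ± 0.21, adjusted p = 0.0028) and fell in Treg relative to TN (-0.81 ± 0.21, adjusted p = 0.023), although without TN replicate 1 that adjusted p was 0.13.

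Mx1 encodes a nuclear GTPase that blocks influenza virus, and many inbred mouse strains carry a form of it that is not functional. It gave the largest difference of the 39 genes between GFPKO and TN. Its values were 6.65, 6.45 and 6.65 in GFPKO, 5.13, 5.40, 5.31, 5.37 and 5.39 in Treg, and 4.44, 4.59 and 4.25 in TN, so the 3 groups formed 3 separate levels. The fold of Mx1 was 4.47 for GFPKO over TN (2.16 ± 0.14, adjusted p = 8.1e-08), 2.40 for GFPKO over Treg (1.26 ± 0.12, adjusted p = 8.3e-06) and 1.86 for Treg over TN (0.90 ± 0.12, adjusted p = 9.6e-05). Its relative Mx2, a cytoplasmic protein, differed by 0.52 ± 0.17 between GFPKO and TN and was not called (adjusted p = 0.09).

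Rsad2 encodes viperin, which makes a nucleotide that stops viral RNA synthesis. It read 8.79, 8.29 and 8.46 in GFPKO, 6.58, 6.84, 6.84, 6.89 and 6.88 in Treg, and 6.65, 7.04 and 6.84 in TN. The GFPKO values stood apart from the 8 others, whose groups overlapped. The log2 difference was 1.67 ± 0.16 against TN (adjusted p = 4.9e-06) and 1.71 ± 0.14 against Treg (adjusted p = 1.7e-06). Rsad2 has other probe sets above background, of which one gave 1.88 against TN and was called and another gave 0.86 and was not (adjusted p = 0.11). Cmpk2, a mitochondrial nucleotide kinase whose gene lies beside Rsad2, was 0.97 ± 0.16 higher in GFPKO than in TN (adjusted p = 0.001) and 0.97 ± 0.14 higher than in Treg (adjusted p = 0.00037), with every GFPKO array above the other 8.

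Ifitm3, a membrane protein that hinders fusion of viruses with the cell, read 7.22, 7.39 and 8.97 in GFPKO, 6.42, 6.63, 6.15, 6.95 and 6.92 in Treg, and 6.44, 6.42 and 5.92 in TN. GFPKO replicate 3 was far above the other GFPKO arrays, and all 3 exceeded every Treg and TN array. The differences were 1.60 ± 0.36 against TN (adjusted p = 0.013) and 1.25 ± 0.32 against Treg (adjusted p = 0.022). Without TN replicate 3 the first had an adjusted p of 0.062, and without Treg replicate 3 the second had 0.059. Isg20, an RNA exonuclease, read 8.82, 8.74 and 9.05 in GFPKO, 8.76, 8.92, 9.05, 8.97 and 9.24 in Treg, and 8.08, 8.01 and 7.84 in TN. Here the TN arrays were lowest and the GFPKO and Treg values overlapped. Isg20 rose in GFPKO (0.89 ± 0.15, adjusted p = 0.0012) and in Treg (1.01 ± 0.13, adjusted p = 6.2e-05) relative to TN, and GFPKO minus Treg was -0.12, with a 95% interval from -0.40 to 0.16. Bst2, or tetherin, which holds budding viruses at the cell surface, read 8.70, 8.70 and 10.01 in GFPKO, 8.87, 9.04, 9.18, 9.05 and 9.47 in Treg, and 9.16, 9.15 and 9.07 in TN. Of its GFPKO arrays 2 were the lowest of all 11 and 1 was the highest, and the mean difference from TN was 0.01 with a 95% interval from -0.57 to 0.59. Samd9l, an inhibitor of translation in infected cells, was 0.79 ± 0.23 higher in GFPKO than in Treg (adjusted p = 0.046), and without GFPKO replicate 1 the difference was 0.39 (adjusted p = 0.19).

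**Figure D3:**
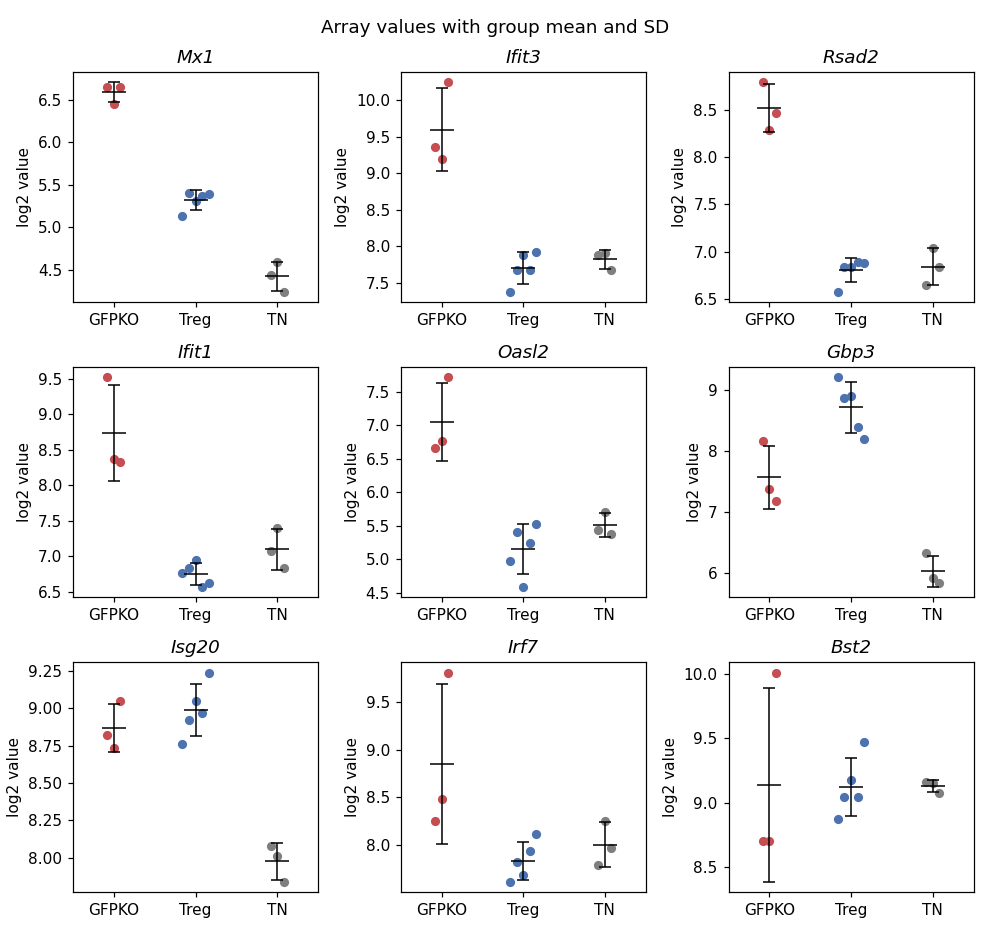
Log2 value of 9 of the genes on each array (points), with the group mean and SD (bars), for GFPKO (n = 3), Treg (n = 5) and TN (n = 3). Mx1 lies at 3 separate levels, Ifit3, Rsad2, Ifit1 and Oasl2 stand apart in GFPKO, Gbp3 is highest in Treg, Isg20 is lowest in TN, and Irf7 and Bst2 each have 1 GFPKO array, replicate 3, far above the rest.

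The guanylate-binding proteins are GTPases that attack intracellular microbes and are strongly induced by type II interferon. Gbp3 read 8.16, 7.38 and 7.18 in GFPKO, 9.21, 8.88, 8.91, 8.41 and 8.20 in Treg, and 6.33, 5.93 and 5.85 in TN. The 3 groups did not overlap, with Treg highest. The gene was 6.43-fold higher in Treg than in TN (2.68 ± 0.24, adjusted p = 1.4e-06), 2.91-fold higher in GFPKO than in TN (1.54 ± 0.27, adjusted p = 0.0023) and lower in GFPKO than in Treg (-1.14 ± 0.24, adjusted p = 0.0072). The lowest Treg value and the highest GFPKO value differed by little, 8.20 and 8.16. Gbp2 read 10.10, 10.14 and 10.03 in GFPKO, 10.65, 10.41, 10.27, 10.003 and 9.95 in Treg, and 9.86, 9.79 and 9.47 in TN. All TN arrays were below the other 8, whose groups overlapped. It rose in Treg relative to TN (0.55 ± 0.16, adjusted p = 0.04), a call lost without TN replicate 3 (adjusted p = 0.21), and in GFPKO the difference of 0.39 ± 0.18 from TN was not called (adjusted p = 0.29).

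The oligoadenylate synthetases make the messenger that activates an RNA-degrading enzyme, and the OASL proteins are their relatives. Oasl2 read 6.66, 6.77 and 7.71 in GFPKO, 4.98, 5.41, 4.59, 5.24 and 5.54 in Treg, and 5.44, 5.71 and 5.38 in TN. The lowest GFPKO value, 6.66, was above the highest of the other 8, 5.71 in TN. The differences were 1.53 ± 0.27 against TN (adjusted p = 0.0021) and 1.89 ± 0.24 against Treg (adjusted p = 0.00012). Oas1a showed another order. It read 7.82, 8.13 and 9.04 in GFPKO, 8.87, 9.03, 9.28, 9.24 and 9.36 in Treg, and 8.41, 8.35 and 8.27 in TN. GFPKO spread over the whole range, with 2 arrays below TN and 1 among the Treg arrays, and all Treg arrays were above TN. Oas1a rose in Treg relative to TN (0.81 ± 0.21, adjusted p = 0.022) and was lower in GFPKO than in Treg (-0.83 ± 0.21, adjusted p = 0.023), and these calls were lost without TN replicate 3 (adjusted p = 0.094) and without GFPKO replicate 1 (adjusted p = 0.12). Oas2 was 1.14 ± 0.22 higher in GFPKO than in Treg (adjusted p = 0.0044). Neither Oas3 nor Oasl1 was called in any comparison.

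Among the nucleic acid sensors, Eif2ak2, the kinase PKR that halts translation on double-stranded RNA, read 7.54, 6.45 and 6.78 in GFPKO, 6.53, 6.12, 5.75, 6.09 and 6.06 in Treg, and 4.73, 6.08 and 5.76 in TN. TN replicate 1 lay far below the other TN arrays, and all GFPKO arrays were above all TN arrays. The difference was 1.40 ± 0.32 (adjusted p = 0.014), and without TN replicate 1 it was 1.01 (adjusted p = 0.073). Ifih1, the sensor MDA5, was 1.05 ± 0.20 higher in GFPKO than in TN (adjusted p = 0.0046) and 0.90 ± 0.18 higher than in Treg (adjusted p = 0.0051). Dhx58, the sensor LGP2, was 1.01 ± 0.23 higher in GFPKO than in TN (adjusted p = 0.013), and without TN replicate 3 the adjusted p was 0.057. Zbp1, which senses Z-form nucleic acid, differed by 0.38 ± 0.15 and was not called (adjusted p = 0.2).

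Stat2, Irf9, Irf7 and Irf1 carry the signal to DNA. Stat2 read 5.95, 6.34 and 6.68 in GFPKO, 5.96, 5.97, 5.51, 6.11 and 6.24 in Treg, and 5.46, 5.85 and 5.40 in TN. The 3 GFPKO values were above the 3 TN values and overlapped with Treg. The difference of 0.75 ± 0.21 from TN lay at the edge of the threshold (adjusted p = 0.049), and without TN replicate 1 its adjusted p was 0.19. Irf9, the subunit of the complex that contacts DNA, read 9.68, 10.07 and 10.57 in GFPKO, 10.01, 9.96, 9.84, 9.91 and 10.13 in Treg, and 9.83, 9.73 and 9.71 in TN. GFPKO held both the lowest and the highest value, and no difference was called (GFPKO minus TN 0.35 ± 0.18, adjusted p = 0.37). Irf7, the inducible factor that amplifies type I interferon production, read 8.26, 8.48 and 9.81 in GFPKO, 7.61, 7.82, 7.68, 7.94 and 8.11 in Treg, and 7.79, 8.25 and 7.97 in TN. All GFPKO arrays were above the rest, replicate 1 by only 8.26 against 8.25 and replicate 3 by far. Irf7 rose in GFPKO relative to Treg (1.02 ± 0.27, adjusted p = 0.026), with an adjusted p of 0.062 without Treg replicate 3, and the difference of 0.85 ± 0.30 from TN was not called (adjusted p = 0.14). Irf1, a factor induced mainly by type II interferon, read 10.37, 10.38 and 10.80 in GFPKO, 10.70, 10.68, 10.79, 10.80 and 10.91 in Treg, and 10.73, 10.60 and 10.58 in TN. The 3 groups overlapped, and no difference was called.

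Usp18 removes ISG15 from proteins and restrains the type I receptor. It read 9.33, 9.69 and 10.21 in GFPKO, 8.997, 9.03, 9.24, 9.22 and 9.27 in Treg, and 8.49, 8.53 and 8.22 in TN, which gave 3 groups without overlap. With Mx1 it was 1 of 2 genes called higher in all 3 comparisons: 1.33 ± 0.19 for GFPKO minus TN (adjusted p = 0.00032), 0.74 ± 0.17 for Treg minus TN (adjusted p = 0.0085) and 0.59 ± 0.17 for GFPKO minus Treg (adjusted p = 0.039). The last was 0.36 without GFPKO replicate 3 (adjusted p = 0.11), and Treg minus TN had an adjusted p of 0.064 without TN replicate 3. Parp9 and Parp14, enzymes of ADP-ribosylation, were 0.69 ± 0.14 and 0.64 ± 0.14 higher in GFPKO than in TN (adjusted p = 0.0074 and 0.013) and 0.74 ± 0.13 and 0.45 ± 0.13 higher than in Treg (adjusted p = 0.0015 and 0.04). Parp14 lost the first call without TN replicate 3 (adjusted p = 0.064) and the second without GFPKO replicate 1 (adjusted p = 0.18). Dtx3l, the ubiquitin ligase that binds Parp9, differed by 0.45 ± 0.17 between GFPKO and TN and was not called (adjusted p = 0.17). Trim30a, which restrains inflammatory signalling, and Herc6, the ligase that attaches ISG15 in mice, were 0.78 ± 0.17 and 0.87 ± 0.24 higher in GFPKO than in Treg (adjusted p = 0.0081 and 0.031). Without GFPKO replicate 1 the difference of Herc6 was 0.49 (adjusted p = 0.14).

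None of the antigen processing genes was called in the main fit. Tap1, the peptide transporter, and Psmb8 and Psmb9, subunits of the immunoproteasome, had GFPKO minus TN differences of 0.21, -0.07 and -0.26. GFPKO minus Treg was -0.03, -0.32 and -0.40. With array weights or without GFPKO replicate 3, Psmb9 was called lower in GFPKO than in both other groups (adjusted p from 0.00025 to 0.031). Psmb8 was called lower than in Treg under those alternatives and another moderation (adjusted p from 0.0063 to 0.039). Ly6e, a lipid-anchored surface protein, read 11.50, 11.94 and 12.41 in GFPKO, 12.51, 12.57, 12.17, 12.56 and 12.65 in Treg, and 11.46, 12.08 and 12.00 in TN. All Treg values were above TN, by 12.17 against 12.08 at the nearest. It rose in Treg relative to TN (0.65 ± 0.19, adjusted p = 0.047), and without TN replicate 1 the difference was 0.46 (adjusted p = 0.28). Of the remaining genes, Rtp4, a chaperone of membrane receptors, was 0.67 ± 0.14 higher in GFPKO than in TN (adjusted p = 0.0085) and 0.71 ± 0.12 higher than in Treg (adjusted p = 0.0018). Xaf1, which promotes cell death, was 0.78 ± 0.18 higher in GFPKO than in TN (adjusted p = 0.016), with an adjusted p of 0.091 without TN replicate 1. Ifi35 was not called.

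Of the 39 genes, 22 had 1 probe set and 17 had several. In 15 called combinations of gene and comparison another probe set was above background, and in 10 of them such a probe set was not called. These were Eif2ak2, Parp14, Rsad2, Rtp4, Stat2 and Xaf1 for GFPKO minus TN, Cmpk2, Herc6 and Rtp4 for GFPKO minus Treg, and Ly6e for Treg minus TN. None was called in the opposite direction.

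The 3 GFPKO arrays differed among themselves in which interferon-stimulated genes were high. The median SD over the 39 genes was 0.45 in GFPKO, 0.20 in Treg and 0.14 in TN, against 0.24, 0.17 and 0.15 over all genes. Of the 39 genes, 16 had their highest value of all 11 arrays on GFPKO replicate 3, 13 on replicate 1 and 1 on replicate 2, while over all genes the shares were 10.7%, 11.6% and 8.65%. Among the 3 GFPKO arrays alone, replicate 3 was highest in 23 of the 39 genes, replicate 1 in 14 and replicate 2 in 2. Over all genes these shares were 44.6%, 26.5% and 28.9%, so replicate 3 tended to be highest there too. The median of replicate 3 minus replicate 1 was 0.34 over the 39 genes and 0.12 over all genes. Between replicates 3 and 1, 8 genes were at least 1 log2 unit higher in replicate 3 (Ifitm3 1.75, Irf7 1.55, Oasl1 1.39, Bst2 1.31, Oas1a 1.22, Tap1 1.07, Oasl2 1.06 and Dhx58 1.01), against 3.34% of all genes. Another 3 were at least 1 lower there (Herc6 -1.23, Ifit1 -1.19 and Samd9l -1.15), against 4.19% of all genes. Part of this order recurred among the Treg arrays. Herc6 (6.97) and Samd9l (8.57) were highest on Treg replicate 1, though Ifit1 was not. Irf7 (7.61), Oasl1 (6.05), Bst2 (8.87), Oas1a (8.87) and Dhx58 (6.92) were lowest on it. Ifitm3, Tap1 and Oasl2 were lowest on Treg replicate 3. On the TN arrays the order was mixed, with Samd9l highest but Herc6 lowest on replicate 1. Whether same-numbered arrays share a batch was not tested. Mx1, Gbp2, Zbp1 and Rtp4 differed little between the GFPKO arrays, with SDs of 0.12, 0.06, 0.09 and 0.16. The actin control signal at the 3′ end minus that at the 5′ end, which grows as RNA degrades, was 0.77, 0.83 and 0.45 on GFPKO replicates 1, 2 and 3, against 0.44 to 0.61 on the Treg arrays and 0.38 to 0.53 on the TN arrays. With this signal as a covariate 14 genes rose in GFPKO relative to TN and 16 rose relative to Treg. Relative to TN, Ifih1 (adjusted p = 0.068), Eif2ak2, Parp9, Parp14 and Stat2 then lost their calls, and Irf7 gained one. Relative to Treg, Trim30a (adjusted p = 0.082), Herc6, Samd9l, Parp14 and Oas1a lost theirs, and Oasl1 and Xaf1 gained one. Whether RNA quality had a part in the pattern was not tested. Without GFPKO replicate 1, 2 or 3 the number that rose relative to TN was 21, 17 or 18.

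**Figure D4:**
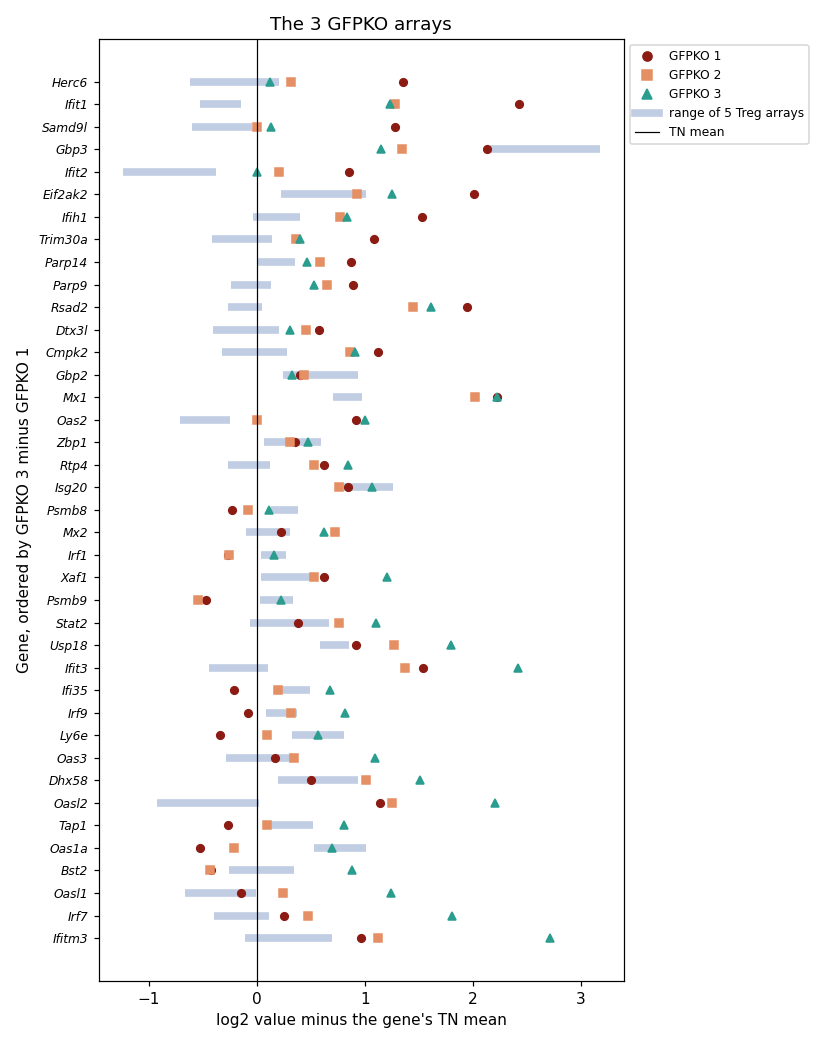
Log2 value minus the TN mean of each of the 39 genes on GFPKO replicate 1 (circles), 2 (squares) and 3 (triangles), with the range of the 5 Treg arrays as bars, ordered by replicate 3 minus replicate 1. At the top, Herc6, Ifit1 and Samd9l are highest in replicate 1, at the bottom Bst2, Oasl1, Irf7 and Ifitm3 are highest in replicate 3, and in the middle Mx1 is alike in all 3.

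Promoter sequence was read for the same genes. RefSeq promoter windows (build GRCm38.p6, 250 bases before to 50 after a transcript's start) were at hand for 31 of the 42 genes. They were searched on both strands for the ISRE core GAAANNGAAA and the GAS letters TTCNNNGAA, which can overlap each other. An ISRE match stood in the windows of 14 of the 31 genes (45.2%), against 3.99% of 27025 genes, and a GAS match in 9 (29.0%), against 9.55%. Of 12 genes with a window that rose in GFPKO relative to TN, 8 held an ISRE match (66.7%), and of 17 measured genes that did not, 5 did (29.4%). Of 12 genes with a window that rose in GFPKO relative to Treg, 6 held one, and of 17 that did not, 7 did. GAS matches ran the other way, in 3 of the 12 genes that rose relative to TN against 6 of the 17 that did not, and in 2 of 12 against 7 of 17 relative to Treg. These splits were not tested. A match describes these letters in this window and not a bound site. Stretches around the matches are shown for Ifit3, Rsad2 and Ifit1, which separated GFPKO from both other groups, for Gbp3, which was highest in Treg, and for Bst2, which holds the same letters and was not called. Capitals mark the ISRE letters, written as TTTCNNTTTC where the match is on the other strand.
Ifit3 (chr19:34583333-34583456, plus strand): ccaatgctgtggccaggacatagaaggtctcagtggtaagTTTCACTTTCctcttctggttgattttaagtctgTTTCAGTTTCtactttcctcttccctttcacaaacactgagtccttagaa
Rsad2 (chr12:26456523-26456612, minus strand): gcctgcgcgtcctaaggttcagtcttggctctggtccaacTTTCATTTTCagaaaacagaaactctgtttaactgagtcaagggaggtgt
Ifit1 (chr19:34640745-34640853, plus strand): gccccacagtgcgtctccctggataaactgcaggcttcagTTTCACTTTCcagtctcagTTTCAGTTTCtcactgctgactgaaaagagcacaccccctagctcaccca
Gbp3 (chr3:142559959-142560043, plus strand): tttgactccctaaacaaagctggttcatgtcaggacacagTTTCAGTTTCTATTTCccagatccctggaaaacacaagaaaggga
Bst2 (chr8:71537547-71537642, minus strand): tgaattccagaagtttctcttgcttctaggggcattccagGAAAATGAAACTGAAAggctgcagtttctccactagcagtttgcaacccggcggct

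Ifit3 and Ifit1 each held 2 separate ISRE matches, beginning 156 and 122 bases before the start in Ifit3 and 104 and 85 bases before it in Ifit1. Gbp3 held 2 matches that share a block, at 45 and 39 bases, and Bst2 held 2 that share a block, at 130 and 124 bases. Rsad2 held 1, at 120 bases. Bst2 and Ifit3 both held the letters, with GFPKO minus TN differences of 0.01 and 1.78.

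The genes upstream of the response were read from the same fit. The shares of all genes called higher and lower were 2.64% and 3.02% for GFPKO minus TN. They were 6.54% and 3.42% for Treg minus TN, and 2.55% and 6.88% for GFPKO minus Treg. Of 19 listed interferon genes 10 were measured, and none was called in any comparison. Only 4 had means above background in each group. Ifna2, Ifna4, Ifna5, Ifna11, Ifnab and Ifnb1 were at background in all groups, where the absence of a call shows little. Ifnb1 was below the background level on every array, at 2.46 to 3.35 in GFPKO, 2.66 to 3.28 in Treg and 3.08 to 3.44 in TN. Ifng, the type II interferon, averaged 4.44 ± 0.37 in GFPKO, 5.21 ± 0.39 in Treg and 4.81 ± 0.40 in TN (SD), and GFPKO minus Treg was -0.77 ± 0.23 (adjusted p = 0.051). Of 6 receptor chains, none was called between GFPKO and TN, and 4 rose in Treg relative to TN. The type II receptor chain Ifngr1 read 8.94, 9.08 and 9.16 in GFPKO, 9.85, 9.77, 9.72, 9.57 and 9.65 in Treg, and 9.05, 8.98 and 8.82 in TN. Treg stood above both other groups, which overlapped. Ifngr1 rose in Treg by 0.76 ± 0.11 over TN (adjusted p = 0.00027) and was lower in GFPKO than in Treg (-0.66 ± 0.11, adjusted p = 0.0019). Il10rb, a chain shared by the type III interferon and interleukin 10 receptors, rose in Treg over TN by 0.90 ± 0.11 (adjusted p = 4.6e-05) and was lower in GFPKO than in Treg (-0.80 ± 0.11, adjusted p = 0.00031), a call lost with the mean over its probe sets (adjusted p = 0.0758). Of the type I receptor, Ifnar2 rose in Treg by 0.70 ± 0.13 (adjusted p = 0.0016), and Ifnar1 by 0.42 ± 0.10 (adjusted p = 0.014), a call that was lost with the mean over its probe sets (adjusted p = 0.512) and without any 1 of the TN arrays. In GFPKO, Ifnar1 and Ifnar2 differed from TN by 0.13 ± 0.11 and 0.44 ± 0.14 (adjusted p = 0.69 and 0.1). Ifngr2 was not called.

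Of 5 Janus kinases and STATs, Jak2, the kinase of the type II receptor, was 0.83 ± 0.19 higher in GFPKO than in Treg (adjusted p = 0.0099), a call that was lost with the actin signal as a covariate and with values under 4 set to 4 (adjusted p up to 0.0987), and Jak1 and Tyk2 were not called. Socs1, a feedback inhibitor of the kinases, read 6.03, 6.61 and 7.28 in GFPKO, 7.34, 7.20, 7.19, 7.79 and 7.99 in Treg, and 6.17, 5.99 and 5.86 in TN. GFPKO ran from the TN level in replicate 1 to the Treg level in replicate 3. Socs1 rose in Treg over TN by 1.49 ± 0.24 (adjusted p = 0.00058) and was lower in GFPKO than in Treg (-0.86 ± 0.24, adjusted p = 0.038), a call that was lost in 13 of the alternatives (adjusted p up to 0.326). Among the other IRFs, Irf4, a factor of activated T cells, rose in GFPKO (2.28 ± 0.15, adjusted p = 1.7e-07) and in Treg (2.17 ± 0.14, adjusted p = 3.5e-08). Irf5 and Irf8 rose in Treg over TN by 1.27 ± 0.15 (adjusted p = 1.9e-05) and 0.63 ± 0.16 (adjusted p = 0.023), and were lower in GFPKO than in Treg (-1.31 ± 0.15 and -0.99 ± 0.16, adjusted p = 3.6e-05 and 0.0013). The rise of Irf8 was lost in 6 alternatives (adjusted p up to 0.152), among them leaving out TN replicate 1, TN replicate 3 or Treg replicate 5. Of 17 sensors and adaptors, Tlr7, Samhd1 and Trim25 rose in GFPKO over TN (1.36, 1.13 and 0.62), and Tlr7, Samhd1 and Sting1 rose in Treg over TN (1.38, 1.07 and 0.65) while Ikbke fell (-0.44). The call of Ikbke was lost in 8 alternatives (adjusted p up to 0.171), among them leaving out any 1 of the TN arrays or of Treg replicates 1 to 4. That of Trim25 was lost in 5 (adjusted p up to 0.0973), among them leaving out TN replicate 1 or GFPKO replicate 2.

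**Figure D5:**
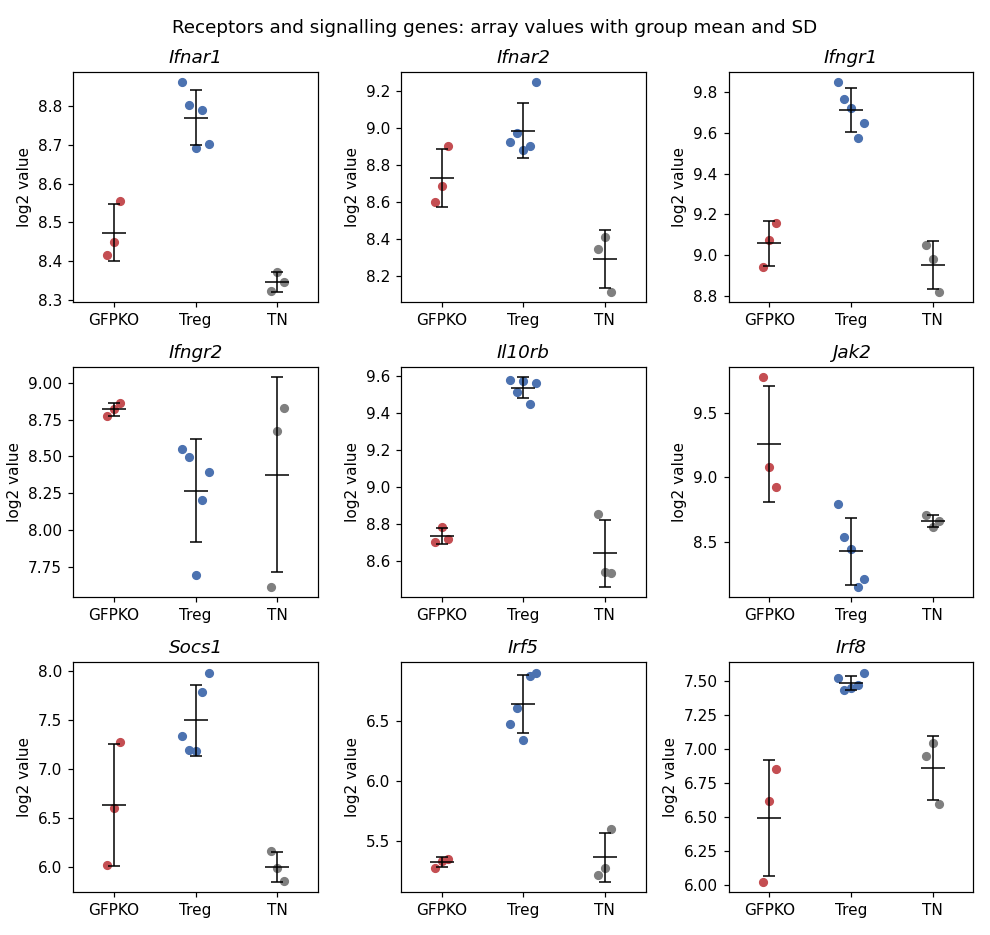
Log2 value on each array (points) with group mean and SD (bars) of 5 receptor chains, Jak2, Socs1, Irf5 and Irf8 in GFPKO (n = 3), Treg (n = 5) and TN (n = 3). Ifnar1, Ifngr1, Il10rb, Irf5 and Irf8 are highest on all 5 Treg arrays, and Jak2 is highest on the GFPKO arrays.

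A wider list of 68 measured interferon-stimulated genes outside the 42 had 13 that rose and 2 that fell in GFPKO relative to TN, where 2.64% and 3.02% of all genes did. It too was chosen with earlier results of these data known, so it is no independent check of the 42. In Treg relative to TN 10 rose and 3 fell (6.54% and 3.42% of all genes), and in GFPKO relative to Treg 13 rose and 5 fell (2.55% and 6.88%). The median differences were 0.23, 0.09 and 0.06, against -0.04, 0.03 and -0.08 over all genes. The 13 that rose in GFPKO relative to TN were 8 without TN replicate 1, 6 with the 2 groups alone, 8 with the actin covariate and 22 with array weights, and the 2 that fell were 4 without GFPKO replicate 3 and 6 with weights. In Treg relative to TN 6 rose without TN replicate 3 or with centred arrays, and 1 fell without TN replicate 2 or 3 and 5 with weights. In GFPKO relative to Treg 8 rose and 3 fell with the actin covariate, and 20 rose and 14 fell with weights. The largest rises in GFPKO over TN were those of Iigp1, a GTPase that attacks parasite vacuoles (1.53 ± 0.21, adjusted p = 0.00025), Ms4a4c (1.40 ± 0.13, adjusted p = 8.4e-06) and Gbp6 (1.35 ± 0.21, adjusted p = 0.001). The falls were Ccl5, a chemokine of memory and cytotoxic cells (-4.11 ± 0.22, adjusted p = 1.4e-08), and Ifi30, a thiol reductase of antigen processing (-1.04 ± 0.17, adjusted p = 0.0016). In Treg over TN the chemokine Cxcl10 rose by 1.88 ± 0.20 (adjusted p = 6.8e-06), and Ifitm2 by at least 2.27, since its TN mean was at background. In GFPKO, whose Ifitm2 mean was also at background, Ifitm2 was at least 1.87 lower than in Treg (adjusted p = 5.6e-05), while Ifitm3 was higher.

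Markers of other cells and states also moved. Of 12 myeloid and dendritic markers, 5 were lower in GFPKO than in TN and 5 lower and 1 higher in Treg than in TN; their summed level ran from 7.97 to 8.65 in GFPKO, 8.19 to 8.92 in Treg and 8.98 to 9.54 in TN on the log2 scale, with Itgam and Cd14 at background in all groups. Of 8 markers of plasmacytoid dendritic cells, the chief producers of type I interferon, 3 were lower in GFPKO than in TN, 2 were higher and 4 lower in Treg than in TN, and 1 was lower in GFPKO than in Treg. Their sums ran from 9.37 to 9.73 in GFPKO, 9.74 to 10.06 in Treg and 9.49 to 9.68 in TN, with Siglech and Tcf4 at background in GFPKO and Treg. Of 6 natural killer markers, 4 were lower in GFPKO and 3 in Treg than in TN, and 1 was higher and 1 lower in GFPKO than in Treg, with sums of 6.96 to 7.26 in GFPKO, 7.22 to 7.38 in Treg and 9.57 to 9.81 in TN, and Ncr1 and Klrk1 at background throughout. Of 8 activation genes, 7 were higher than in TN in GFPKO and 7 in Treg, and 2 were lower in GFPKO than in Treg, with sums of 11.91 to 12.12 in GFPKO, 12.70 to 12.82 in Treg and 10.45 to 10.70 in TN. Of 7 B cell markers, 1 was higher and 1 lower than in TN in GFPKO and likewise in Treg, and 1 was lower in GFPKO than in Treg. Their sums were 6.76 to 7.14 in GFPKO, 7.93 to 8.37 in Treg and 6.46 to 6.74 in TN, with Ms4a1, Cd79a, Blk, Cr2 and Ebf1 at background in all groups. Of 5 markers of naive and central T cells, 3 were lower in GFPKO and 4 lower in Treg than in TN, and 4 were higher in GFPKO than in Treg, with sums of 13.03 to 13.21 in GFPKO, 12.20 to 12.42 in Treg and 13.62 to 13.70 in TN. Their part in the differences of the interferon-stimulated genes was not tested. In sorted cells measured in bulk, fewer cells that express a gene and less RNA per cell cannot be told apart.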

How the data were processed

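Total RNA of sorted CD4 T cells was labelled and hybridised to 11 Affymetrix arrays, per the labels. The authors made the deposited log2 values with RMA, per the submitters' processing notes, with no version stated; the log2 scale was read from the values. RMA fits each probe set over its probes and gives no detection call, so 3.99, the highest Foxp3 value in TN, served as background. The number of arrays limits the precision.

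Of 45101 probe sets, 64 controls, 9160 that the gene table does not list and 932 with several symbols were left out. The other 34945 gave 18193 genes, each from its brightest probe set, and 34741 matched RefSeq by Entrez ID. Values were used as deposited, without a filter. limma 3.58.1 in R 4.3.3 fitted 1 mean per group over all 11 arrays, with empirical Bayes moderation and no covariate. Tests were two-sided, with Benjamini-Hochberg adjustment per contrast over all genes and a call at 0.05, and the fit was tested on simulated data. Lists were described by counts and medians beside those of all genes. No 2 arrays held identical values.

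The members and all lists were chosen with earlier results of these data known. Array values are printed for up to 8 called members per contrast with the largest difference and for some preset members (Stat2, Irf9, Irf7, Irf1, Ifit1, Mx1, Bst2 and Gbp2), and pathway genes were named by a like rule. Alternatives covered the probe set, dim genes, a floor, scaling, moderation, array weights, the arrays in the fit, the actin signal as a covariate, a replicate block, thresholds and each array left out.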

Additional observations from a re-analysis of the deposited data

Results flagged for a closer look

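Rsad2 on Treg replicate 1 was 6.58, apart from the other 4 Treg arrays at 6.84 to 6.89. Its gap to the nearest of them was 0.817 of the group's range, above Dixon's critical value of 0.71 for 5 arrays. It was the 1 value set apart in this way among the Treg arrays of 39 genes, where chance alone sets apart about 5% of groups.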

How the results depend on the processing

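No called difference of a gene changed sign under any of the 22 alternatives, while 8, 11 and 6 uncalled ones did at least once (GFPKO minus TN, Treg minus TN and GFPKO minus Treg). Under all of them 10 of 18 calls held for GFPKO minus TN (Oasl2, Ifit1, Ifit3, Mx1, Rsad2, Cmpk2, Isg20, Usp18, Gbp3 and Rtp4), 3 of 8 for Treg minus TN (Mx1, Isg20 and Gbp3) and 11 of 20 for GFPKO minus Treg (Ifih1, Oas2, Oasl2, Ifit1, Ifit2, Ifit3, Mx1, Rsad2, Cmpk2, Parp9 and Rtp4). The alternative with every probe set on its own took the lowest p of each gene, so a further probe set without a call did not end a call. Such probe sets were seen for Rtp4 and Rsad2 (GFPKO minus TN) and for Rtp4 and Cmpk2 (GFPKO minus Treg). For GFPKO minus TN the count of 18 was 11 in a fit of the 2 groups alone, 11 at 2-fold or more, and 14 to 21 with 1 array left out. For Treg minus TN the count of 8 was 4 with values under 4 set to 4, 2 at 2-fold or more, 4 at an adjusted p under 0.01, and 4 to 9 with 1 array left out. For GFPKO minus Treg the count of 20 was 13 with the floor, 10 at 2-fold or more, 13 at an adjusted p under 0.01, and 13 (without Treg replicate 3) to 24 (without GFPKO replicate 3) with 1 array left out. Those 24 were 18 higher and 6 lower, where 1007 and 2414 of all 18193 genes were. With all arrays the 20 were 18 higher and 2 lower, where 464 and 1252 of all genes were. Array weights gave GFPKO replicate 2 a weight of 5.11 and the other GFPKO arrays 0.254 and 0.308. The counts were then 26 (25 higher and 1 lower), 9 (8 and 1) and 30 (24 and 6). Calls grew over all 18193 genes too, to 2118 higher and 2933 lower, 1837 and 1386, and 2332 and 4424. The causes of these shifts were not tested.

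With the replicate number as a block the counts were 18, 5 and 18. Same-numbered arrays did not deviate together throughout, so the numbers were not taken to pair the arrays. Deviations of the replicate 1 arrays correlated at 0.51 (Treg and GFPKO), 0.21 (TN and Treg) and 0.16 (TN and GFPKO). Those of replicates 2 and 3 correlated at -0.22 to 0.07. Whether the replicate 1 arrays share a batch was not tested.

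Scaling moved the balance over all genes. Treg minus TN had 1190 genes higher and 623 lower as deposited, and 904 and 1174 with each array centred on its median, which moved the median of all genes to -0.11, from 0.03. GFPKO minus Treg had 464 higher and 1252 lower as deposited, 899 and 675 centred (median 0.09 rather than -0.08) and 656 and 922 after quantile normalization. Members then stood at 5 higher and 1 lower, and at 22 higher and 1 lower or 22 and 2. With centring, Gbp2 and Ly6e lost their calls for Treg minus TN. Over all genes, GFPKO minus TN had 480 higher and 549 lower, against 311 and 251 with the 2 groups alone, 341 and 229 with the actin covariate, 2118 and 2933 with array weights and 644 and 1224 without GFPKO replicate 3. GFPKO minus Treg had 2332 and 4424 with weights, 227 and 584 with the actin covariate, 297 and 752 with the block, and 1007 and 2414 without GFPKO replicate 3. Treg minus TN had 1837 and 1386 with weights.

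Weak signals near background, unknown depth of detection and 3 to 5 arrays a group limit what small differences can show.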
